A study of Homo sapiens with 16 samples.

Results

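TRiC, the chaperonin also called CCT, is built from the products of 8 genes, TCP1, CCT2, CCT3, CCT4, CCT5, CCT6A, CCT7 and CCT8, and their transcripts are described here in human pancreatic progenitors whose actin was depolymerised with latrunculin B. These 8 genes were taken by name from 35810 genes for which reads were summed, and all 8 were among the 16705 genes that passed the filter on low counts. The cells were SA121 embryonic stem cells carrying an NGN3-GFP reporter, grown in culture to the pancreatic progenitor stage (day 19), and poly(A) RNA was sequenced from 16 libraries. Latrunculin B (LatB), which binds actin monomers and keeps them from polymerising, was given at 0.5 µM for 3 h (n = 3), 6 h (n = 3), 12 h (n = 2) or 24 h (n = 3). The comparison groups were a control at 0 h (n = 3) and a control at 24 h that received the solvent DMSO (n = 2). The 0 h control carries a DMSO tag in its label, whereas the series text places its harvest before any treatment, so its exposure to the solvent is not certain. All groups share the single parent line and reporter, and replicates were not stated to come from separate differentiations, so p-values measure the spread between these libraries.

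TRiC is a barrel of stacked rings in the cytosol, and each ring holds 1 copy of every subunit in a fixed order. It uses ATP to close over newly made proteins, and actin and tubulin, which reach their native fold through it, are its classical clients. TCP1, CCT2, CCT4 and CCT5 lie on the side of the ring that uses ATP most readily, and CCT3, CCT6A, CCT7 and CCT8 on the other side.

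The libraries held 23609727 to 33515398 estimated reads, and each subunit was covered in every library, from 3817 reads for CCT5 in a 0 h control to 11049 reads for CCT2 after 24 h of LatB. All 8 pancreatic progenitor markers reached 1 TPM (a length-scaled transcript level that sums to the same total in each library) in at least 1 library of every group, and their summed level was 455 to 575 TPM. It was 455 to 512 TPM after 24 h of LatB, 566 and 570 TPM in the 24 h control and 501 and 529 TPM after 12 h of LatB. At 24 h, 2 of these 8 were higher and 3 lower at an adjusted p under 0.05 in edgeR, beside 21.9% and 18.8% of all genes. The 12 h LatB libraries were the least alike as replicates, with a correlation of log2 CPM of 0.967 against 0.980 to 0.986 within the other groups. Their summed liver-type markers lay at 1088 and 2654 TPM, against 694 to 1349 TPM in the other groups, and their mesenchymal markers at 59.7 and 299.6 TPM against 47.1 to 124 TPM. In bulk RNA, a change in the number of cells of a type and a change in the RNA of each cell cannot be told apart.

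On GRCh38, with GENCODE coordinates, the genes lie on 7 chromosomes. TCP1 (ENSG00000120438.12) spans chr6:159778498-159789703 on the minus strand and CCT2 (ENSG00000166226.13) chr12:69585426-69601570 on the plus strand. CCT3 (ENSG00000163468.15) spans chr1:156308968-156367873 on the minus strand, where TSACC overlaps it on the other strand. CCT4 (ENSG00000115484.15) spans chr2:61868085-61888671 on the minus strand and CCT7 (ENSG00000135624.17) chr2:73233420-73253021 on the plus strand. CCT5 (ENSG00000150753.12) spans chr5:10249929-10266389 and CCT6A (ENSG00000146731.11) chr7:56051685-56063989, both on the plus strand, and CCT8 (ENSG00000156261.13) chr21:29055805-29073797 on the minus strand. The values below are sums over all transcripts of each gene.

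The upstream sequences of 4 subunits are shown because these genes had different time courses or share their start region with another gene. CCT2 was called from 3 h and had the largest difference until 12 h, CCT3 had a larger difference at every later time, CCT7 was called at 24 h alone, and TCP1 starts 109 bases from MRPL18 on the opposite strand. RefSeq promoter windows on GRCh38.p14 run from 250 bases before to 50 bases after a start and were found for 7 of the 8 subunits, CCT6A having no entry. The longest stretch of each window that is free of annotated exons is printed 5′ to 3′ along the gene's own strand. Capitals mark matches to CCAAT or GGGCGG on either strand.
CCT2, chr12:69585209-69585425, plus strand: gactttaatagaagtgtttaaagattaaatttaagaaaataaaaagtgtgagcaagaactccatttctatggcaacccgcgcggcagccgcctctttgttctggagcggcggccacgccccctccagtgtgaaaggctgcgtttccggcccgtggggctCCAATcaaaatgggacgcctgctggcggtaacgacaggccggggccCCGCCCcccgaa
CCT3, chr1:156338312-156338502, minus strand: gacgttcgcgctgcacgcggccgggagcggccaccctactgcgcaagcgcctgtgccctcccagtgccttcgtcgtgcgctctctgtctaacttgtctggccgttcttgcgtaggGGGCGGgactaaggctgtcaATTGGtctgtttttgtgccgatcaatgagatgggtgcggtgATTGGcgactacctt
CCT7, chr2:73234058-73234235, plus strand: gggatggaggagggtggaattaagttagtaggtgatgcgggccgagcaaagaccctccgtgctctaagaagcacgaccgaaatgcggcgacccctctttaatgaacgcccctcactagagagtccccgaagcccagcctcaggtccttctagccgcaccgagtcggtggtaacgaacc
TCP1, chr6:159789704-159789811, minus strand: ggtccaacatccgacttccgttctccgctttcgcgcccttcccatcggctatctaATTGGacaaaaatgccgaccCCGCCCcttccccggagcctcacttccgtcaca

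Motifs were counted by their letters on both strands of the whole windows, and each count is a description of letters only. A subunit was counted if any of its windows held the motif, whereas the percentages are of single windows, so they are not on one scale. CCAAT was found for 4 of the 7 subunits (TCP1, CCT2, CCT3 and CCT8), and 34.6% of all 35116 windows held it. GGGCGG was found for 5 of the 7 (TCP1, CCT2, CCT3, CCT7 and CCT8) against 45% of all windows. The heat shock type GAANNTTC was found for TCP1 and CCT2, in parts of their windows that are not printed, against 6.77% of all windows. The E-box CACGTG was found for 0 of the 7 against 7.26%, and CCGGAAG, a core bound by ETS factors, for CCT2 alone against 10.3%. Within the stretches printed, CCT3 held CCAAT in 2 places and the CCT7 stretch held none of these motifs.

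Before any drug the 8 transcripts differed in level by 2.33 to 2.42-fold from the highest to the lowest gene in a library. In the 0 h controls, TCP1 (the α subunit) was highest with 335, 325 and 335 TPM, and its range did not overlap that of CCT2 (the β subunit) with 276, 288 and 283 TPM. CCT7 (η) followed with 258 to 278 TPM, a range that overlapped CCT2. CCT8 (θ, 217 to 235 TPM) and CCT5 (ε, 215 to 234 TPM) could not be separated from each other. CCT6A (ζ, 180 to 202 TPM) overlapped CCT3 (γ, 173 to 181 TPM), and CCT4 (δ) was lowest with 134.3 to 143.7 TPM. CCT4 was the lowest subunit in all 16 libraries.

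**Figure D1:**
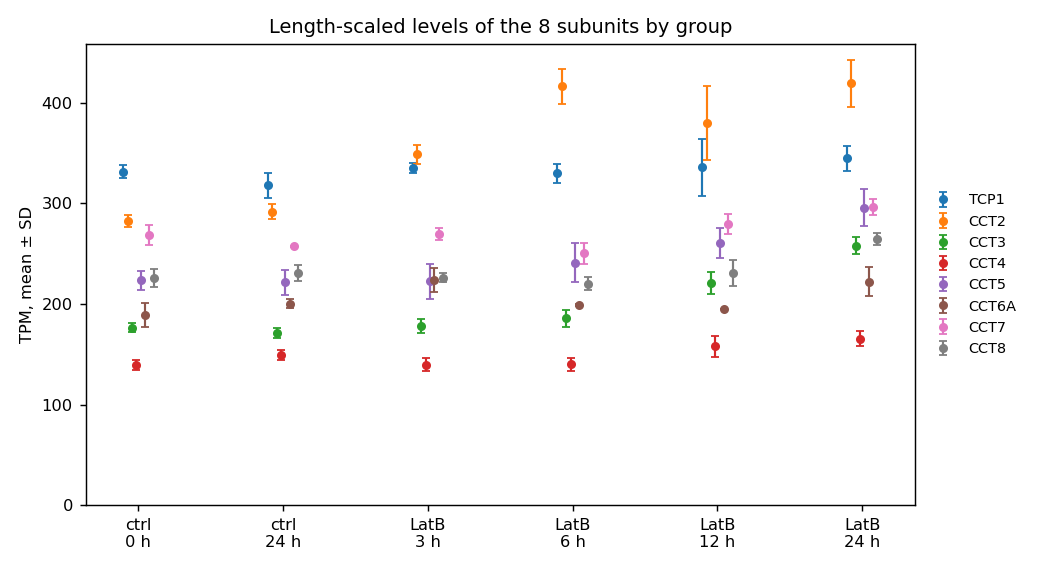
Length-scaled level of each TRiC subunit (TPM, vertical axis from 0) in each of the 6 groups. Points are group means and bars are SD over 2 or 3 libraries; TCP1 is highest in both controls, CCT2 has the highest mean in every LatB group, and CCT4 is lowest throughout.

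Between the controls no subunit was called. After 24 h with DMSO the log2 differences from the 0 h control ran from -0.09 for TCP1 to 0.05 for CCT4, with a median of -0.04, and 0 of the 8 passed an adjusted p of 0.05 in edgeR's quasi-likelihood test or in DESeq2. At an unadjusted p under 0.05 the count was 1, TCP1, whose CPM (reads scaled to the effective library size) was 252, 253 and 254 at 0 h and 232 and 244 at 24 h. Across all genes 0.251% were called in this comparison in either direction, and 1414 of 16705 had an unadjusted p under 0.05.

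Against the control of the same comparison, some subunits were called higher from 3 h of LatB, and all 8 at 24 h. At 3 h, 2 of the 8 subunits were called higher (CCT2 and CCT6A), where 16.8% of all genes tested were called higher. The 3 h calls are therefore read for these 2 genes and not for the 8 as a set. At 6 h the count was 4 (CCT2, CCT6A, CCT5 and CCT3) against 22.9%, and at 12 h it was 4 (CCT2, CCT3, CCT5 and CCT4) against 19.1%. At 24 h all 8 were called higher against 21.9% of all genes. No LatB library of 24 h overlapped a 24 h control library for any of the 8, which held for 33.4% of all genes in the higher direction. Against the 0 h control, 6 of the 8 were called higher at 24 h. In that comparison 42.4% of all genes were called in either direction, and 53.4% of those calls were higher. TCP1 and CCT7 had the lowest differences between the 24 h and 0 h controls, at -0.09 and -0.08, while 3 of the 8 were above 0. With 24 h of LatB their means were 267 and 243 CPM. The 0 h control had 253 and 225 CPM and the 24 h control 238 and 213 CPM. Before 24 h, groups did not overlap, with LatB higher, for 4 of the 8 at 3 h, 5 at 6 h and 6 at 12 h, against 25.3%, 29.5% and 26.3% of all genes. No subunit was called lower at any time, where 14.7%, 20.4%, 16.8% and 18.8% of all genes were called lower at 3, 6, 12 and 24 h. The median log2 difference of the 8 was 0.08, 0.14, 0.14 and 0.21 at 3, 6, 12 and 24 h, beside medians over all genes of 0.0021, -0.010, 0.011 and 0.0081.

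These calls used edgeR's quasi-likelihood test over all genes with Benjamini-Hochberg adjustment, against the 0 h control at 3, 6 and 12 h and against the 24 h control at 24 h. No solvent library of 3, 6 or 12 h was used here, so at those times the drug and the time in culture cannot be told apart. The 3, 6 and 12 h comparisons share their control libraries. On the log2(TPM + 1) scale, which corrects for transcript length but carries no TMM scaling, 1 subunit was called at 6 h (CCT2), 2 at 12 h and 5 at 24 h, and all genes together shifted by -0.07 at 6 h. Without TMM scaling 3 subunits were called at 6 h, the median of all genes moved to -0.10, and the share of higher calls among all called genes fell from 52.8% to 37.7%. At 3 h that share fell from 53.3% to 36.1%, and on the TPM scale it was 38% at 3 h and 36.4% at 6 h.

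**Figure D2:**
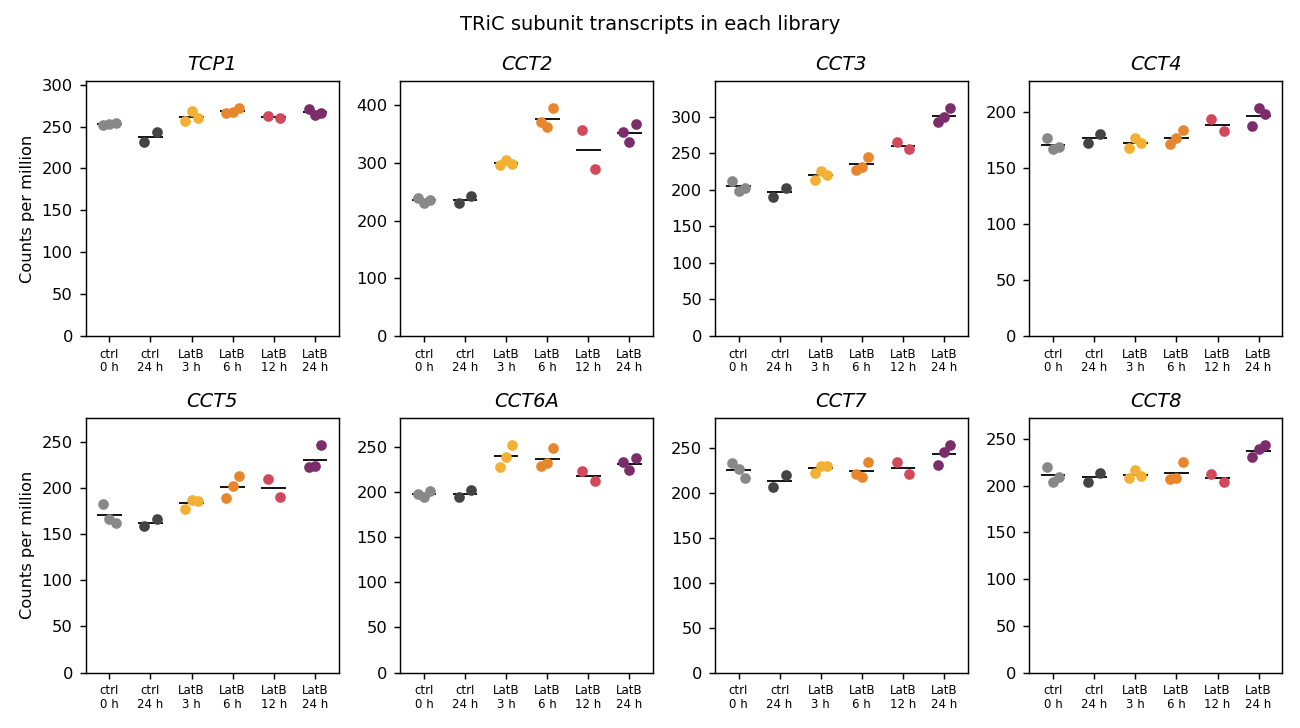
CPM (vertical axis from 0) of each TRiC subunit in each of the 16 libraries, by group; points are libraries and bars are group means. CCT2 is above both controls from 3 h, CCT3 is higher at each later time, and all 8 subunits lie above the 24 h control in the 3 libraries with 24 h of LatB.

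CCT2 had the largest difference of the 8 at 3, 6 and 12 h. Its product sits in the more ATP-active side of the ring and is known to act outside TRiC as a receptor for the autophagy of protein aggregates. The 0 h controls held 239.7, 231 and 236 CPM and the 24 h controls 229.9 and 243 CPM. LatB libraries held 296, 305 and 298 CPM at 3 h, 371, 363 and 395 CPM at 6 h, 357 and 290 CPM at 12 h, and 354, 336 and 367 CPM at 24 h. Every LatB library lay above every control. The log2 difference was 0.35 ± 0.07 (SE) at 3 h with an adjusted p of 0.0011, 0.68 ± 0.07 at 6 h (3.9e-06), 0.46 ± 0.07 at 12 h (0.00032) and 0.58 ± 0.07 at 24 h (6.0e-05).

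CCT2 was the only subunit called between 6 h and 3 h of LatB, by 0.33 ± 0.07 (adjusted p = 0.0032), where 11.9% of all genes were called higher. The 6 h libraries of CCT3 (0.09) and CCT5 (0.14) also lay above all 3 h libraries without a call (adjusted p = 0.17 and 0.14). From 6 h to 24 h it did not differ beyond the test, with a log2 difference of -0.09 (adjusted p = 0.29). The 12 h value depends on the library used, being 0.30 without the first replicate and 0.60 without the second. CCT2 was called in each of the 4 LatB comparisons under all of the alternatives run, which numbered 18 or 19 per comparison.

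CCT6A was the other subunit called at 3 h. It encodes the ζ subunit of most tissues, and its relative CCT6B replaces it in the testis. It held 198, 195 and 201 CPM at 0 h and 194 and 202 CPM in the 24 h control. After LatB it held 228, 239 and 252 CPM at 3 h, 228, 232 and 249 CPM at 6 h, 223 and 212 CPM at 12 h, and 233, 224 and 238 CPM at 24 h. All LatB libraries were above the controls, and the highest group mean was at 3 h.

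The log2 difference of CCT6A was 0.28 ± 0.05 at 3 h (adjusted p = 0.00066), 0.26 ± 0.05 at 6 h (0.00076) and 0.23 ± 0.05 at 24 h (0.0044), while 0.14 ± 0.05 at 12 h was not called (0.062). In TPM its 6 h libraries held 200, 198 and 199, within the 180 to 202 of the 0 h controls, and the difference on the log2(TPM + 1) scale was 0.08 (adjusted p = 0.34 by limma). Reads assigned to its 4 annotated pseudogenes came to between 0.24% and 0.77% of the reads of CCT6A and these pseudogenes together.

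CCT3 and CCT5 were called from 6 h on, and at 24 h their differences were near that of CCT2. CCT3 held 212, 199 and 203 CPM at 0 h and 190.2 and 202 CPM in the 24 h control. With LatB it held 213, 226 and 220 CPM at 3 h, 227, 232 and 245 CPM at 6 h, 265 and 255 CPM at 12 h, and 293, 300.1 and 311 CPM at 24 h. From 3 h on no LatB group overlapped its control, and each later group lay above the one before. The log2 difference was 0.10 ± 0.05 at 3 h, not called (adjusted p = 0.10), then 0.20 ± 0.05 at 6 h (0.0033), 0.35 ± 0.05 at 12 h (0.00018) and 0.62 ± 0.05 at 24 h (2.4e-06), the largest of the 8 at that time.

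CCT5, in which inherited changes cause a sensory neuropathy, held 182, 166 and 162 CPM at 0 h and 158 and 166 CPM in the 24 h control. LatB libraries held 177, 187 and 186 CPM at 3 h, 189, 202 and 213 CPM at 6 h, 209 and 190.4 CPM at 12 h, and 222, 223 and 246 CPM at 24 h. The 3 h libraries overlapped the control through its highest library, and the later groups did not. The log2 difference was 0.11 ± 0.06 at 3 h (adjusted p = 0.22), 0.24 ± 0.06 at 6 h (0.0062), 0.23 ± 0.07 at 12 h (0.018) and 0.51 ± 0.07 at 24 h (0.00010). The 6 h and 12 h calls of CCT5 depended on single libraries, with 0.18 at 6 h without the third LatB library (adjusted p = 0.055). At 12 h the value was 0.16 without the first LatB library (0.15) and 0.20 without the second (0.076) or the third (0.069) 0 h control.

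The effects on CCT3 and CCT5 at 24 h differed from those at 3 h when the difference itself was tested, by 0.51 ± 0.07 (adjusted p = 0.00017) and 0.40 ± 0.09 (0.0061), and 14.6% of all genes were called in that direction. For the other 6 subunits the difference was not called, with CCT6A lowest at -0.05. Between 6 h and 24 h of LatB, 4 subunits were called higher against 19% of all genes, namely CCT3 by 0.36 ± 0.05, CCT5 by 0.20 ± 0.06, CCT8 by 0.15 ± 0.05 and CCT4 by 0.15 ± 0.05. That comparison carries no control of its own at 6 h. CCT3 was called when any library was left out, whereas CCT5, CCT8 and CCT4 were lost without LatB 6 h replicate 1 or 2 or LatB 24 h replicate 3, with values of 0.12 to 0.20, and CCT4 also without LatB 24 h replicate 2 (0.12).

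The remaining subunits moved by smaller amounts and were called mainly at 24 h. TCP1 held 271, 263 and 267 CPM with LatB at 24 h against 232 and 244 CPM in its control, a log2 difference of 0.17 ± 0.04 (adjusted p = 0.0038). From 6 h to 24 h of LatB TCP1 had -0.008 without a call, while its mean was 253 CPM in the 0 h control and 238 CPM in the 24 h control. CCT7 held 231, 245 and 253 against 206 and 220.0 CPM, a difference of 0.19 ± 0.05 (0.014). CCT8 held 230.2, 239 and 243 against 204 and 214 CPM, a difference of 0.18 ± 0.05 (0.011). CCT4 held 187, 203 and 198 against 172 and 180.3 CPM, a difference of 0.15 ± 0.05 (0.028), and at 12 h, with 193 and 183 CPM against 167 to 177 CPM, 0.14 ± 0.05 (0.048). CCT4 lost its 12 h call without 0 h control replicate 2 (0.11) or 3 (0.13) or LatB replicate 1 (0.10), and its 24 h call without LatB replicate 2 (0.13) or 3 (0.15). CCT7 lost its 24 h call without LatB replicate 3 (0.16).

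Before 24 h, CCT7 and CCT8 stayed within 0.02 of the 0 h control on the log2 scale, with adjusted p-values of 0.77 to 0.95. TCP1 lay above all 0 h controls at 3, 6 and 12 h, by 0.05, 0.09 and 0.05, and was not called (adjusted p = 0.31, 0.058 and 0.36). The 24 h calls of these smaller differences depended on the first of the 2 control libraries at 24 h, which held the lower CPM for all 8 subunits. Without it 3 subunits were called at 24 h (CCT2, CCT3 and CCT5), and the values of the other 5 ran from 0.12 to 0.20. That fit has 1 control library left at 24 h, which is assumed to vary like the libraries of the other groups. Beside this comparison, the 5 cell cycle markers MKI67, TOP2A, CCNB1, CDK1 and RRM2 summed to 112 and 139 TPM in the 24 h control, 141 to 177 TPM after 24 h of LatB and 181 to 226 TPM at 0 h, and the 7 endocrine markers to 98.0 and 116 TPM in the 24 h control and 126 to 465 TPM after 24 h of LatB. Their part in the result was not tested.

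**Figure D3:**
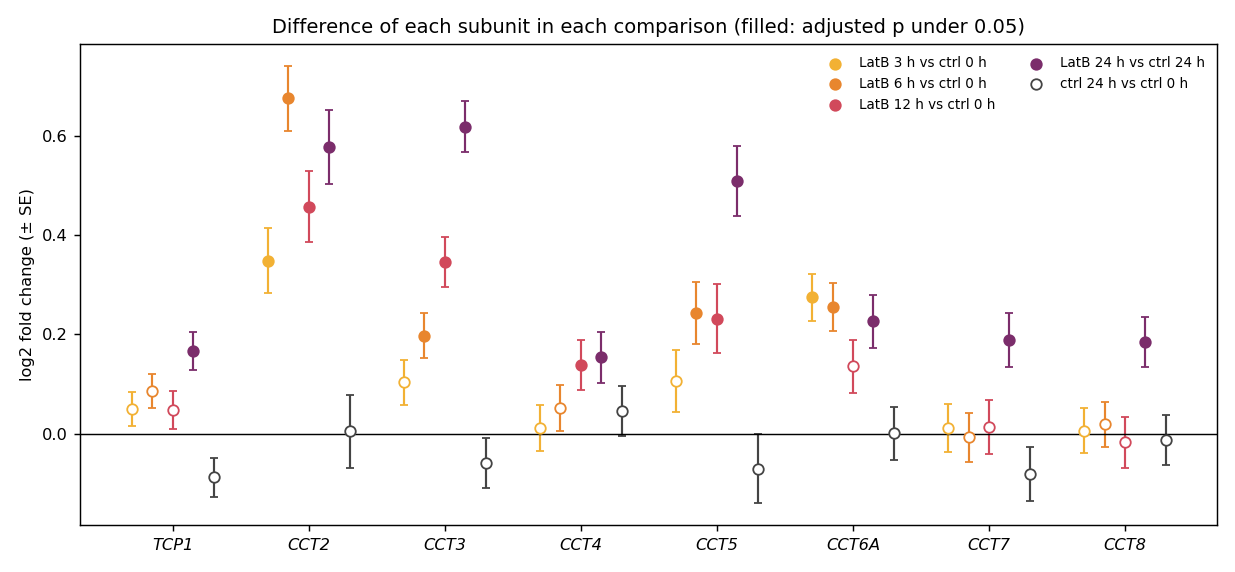
Log2 fold change (vertical axis) of each subunit in 5 comparisons, with its standard error as the bar; filled points passed an adjusted p of 0.05. All 8 points for 24 h of LatB are filled and lie between 0.15 and 0.62, whereas the control at 24 h against 0 h has no filled point.

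Because subunits rose by different amounts, the balance between the 8 transcripts shifted. The summed level of the 8 transcripts was 1809 to 1873 TPM in the 5 controls, 1900 to 1980 TPM at 3 h, 1928 to 2056 TPM at 6 h, 2040 and 2084 TPM at 12 h and 2203 to 2335 TPM at 24 h. CCT2 contributed 14.8% to 15.9% of that sum in the controls and 17.0% to 21.2% in the 11 LatB libraries, with the highest shares at 6 h (20.9%, 20.8% and 21.2%). The ratio of CCT2 to TCP1 was 0.82 to 0.93 in the controls, 1.02 to 1.07 at 3 h and 1.21 to 1.34 at 6 h. At 12 h the 2 libraries differed, at 1.29 and 0.995, and at 24 h the ratio was 1.18 to 1.27.

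CCT2 was thereby the highest subunit in 10 of the 11 LatB libraries and TCP1 in the 5 controls and the second 12 h library. The ratio of the highest to the lowest subunit was 2.12 to 2.42 in the controls and 2.94 to 3.03 at 6 h, and at 24 h it was 2.28 to 2.71. Leaving CCT2 out, the spread of the other 7 levels within a library (their coefficient of variation) was 25.1% to 29.2% in the controls and 20.2% to 23.3% at 24 h of LatB. CCT3 made up 9.28% to 9.72% of the sum in the controls and 11.2% to 11.5% at 24 h, and TCP1 17.1% to 18.3% in the controls and 14.95% to 15.65% at 24 h. In the order of levels CCT3 stood above CCT6A at 12 and 24 h without overlap, the reverse of their order in the 24 h control.

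Across the 16 libraries, CCT5 followed the mean of the other 7 subunits most closely (Pearson r = 0.97 of log2 CPM) and CCT6A least (r = 0.70). These are descriptions over libraries that share groups and scaling. With the mean of all 8 as the pattern, the 5 most similar of 10513 genes with a mean log2 CPM of at least 3 were RPL23A and RPL19 of the large ribosomal subunit, the actin monomer binder PFN1, the histone chaperone SET and the mitochondrial fatty acid enzyme ECHS1, with r from 0.97 to 0.98.

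The transcripts within each gene were also followed, as far as read assignment among overlapping isoforms allows. The main coding transcript of CCT2, CCT2-201, carried 74.8% of the gene's TPM on average and had means of 208 ± 8.78 TPM at 0 h, 254 ± 9.53 at 3 h, 316 ± 12.3 at 6 h and 323 ± 14.2 at 24 h (SD, n = 3 each). A retained-intron transcript of the gene, CCT2-212, lay at 30.0 ± 3.97 TPM at 0 h, 53.7 ± 14.6 at 6 h and 60.9 ± 15.1 at 24 h, where the 24 h control held 40.6 ± 4.53 TPM (n = 2). All retained-intron transcripts of CCT2 together made up 26.3% of the gene's TPM at 0 h, 28.2% in the 24 h control, 24.0% at 6 h and 22.8% at 24 h of LatB. TCP1 was spread over 4 main transcripts, of which TCP1-201 stood at 49.9 ± 3.37 TPM in the 24 h control (n = 2) and 75.3 ± 7.31 TPM after 24 h of LatB, while the most abundant, TCP1-202, had 121 ± 8.53 and 126 ± 7.83 TPM. CCT3-201 had 155 ± 6.62 TPM in the 24 h control and 232 ± 0.888 TPM after 24 h of LatB, and CCT5-203, the main transcript of CCT5, 89.2 ± 0.151 and 125 ± 6.27 TPM. CCT6A-201, with 70.5% of its gene's TPM, had 129 ± 2.61 TPM at 0 h and 149 ± 5.54 TPM at 6 h, a step that the gene's summed TPM did not show. These transcript levels were not tested. CCT3, CCT4 and CCT8 each had a single main coding transcript with 92.5%, 91.0% and 88.9% of the gene's TPM.

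When only transcripts annotated as protein coding were counted, 7 of the 8 subunits were called at 24 h, CCT4 having 0.12 (adjusted p = 0.053). The coding share of TPM ranged from 57.2% to 69.1% for CCT5 and from 95.5% to 98.3% for CCT3 over the 16 libraries.

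Transcripts of most actin clients fell. Of 6 actin genes tested, 5 were called lower at 3 h and at 6 h and 4 at 12 h and 24 h. The shares of all genes called lower were 14.7%, 20.4%, 16.8% and 18.8% at these times. No actin gene was called higher, and the list medians were -1.04, -1.07, -0.96 and -1.67. At 12 h the values ran from -3.70 to 0.98. ACTG1, cytoplasmic γ-actin and the most abundant of them, had 2541 ± 42.7 TPM at 0 h, 1344 ± 69.0 at 6 h, 2606 ± 151 in the 24 h control and 1900 ± 249 TPM after 24 h of LatB. Its log2 difference was -0.79 ± 0.09 at 6 h (adjusted p = 1.7e-05) and -0.38 ± 0.10 at 24 h (0.0085). ACTB, cytoplasmic β-actin, had -0.96 ± 0.08 at 6 h (8.3e-07) and -0.16 ± 0.09 at 24 h, not called (0.15). ACTC1, cardiac actin and scarce in these cells, had the largest called fall (-2.37 ± 0.49 at 6 h and -3.12 ± 0.53 at 24 h).

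Set against the mean TRiC subunit in the same library, ACTB and ACTG1 together came to 20.5 to 21.6 TPM per TPM of subunit in the 5 controls. The ratio was 11.2 to 13.8 at 3 h, 9.36 to 10.1 at 6 h, 9.35 and 9.56 at 12 h and 12.45 to 15.04 at 24 h, with no overlap between LatB and control libraries. The 12 tubulin genes of the list below, leaving out TUBG1, summed to 9.03 to 11.05 TPM per TPM of subunit in the controls. This ratio was 12.1 to 12.6 at 6 h and 7.42 to 7.94 at 24 h.

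**Figure D4:**
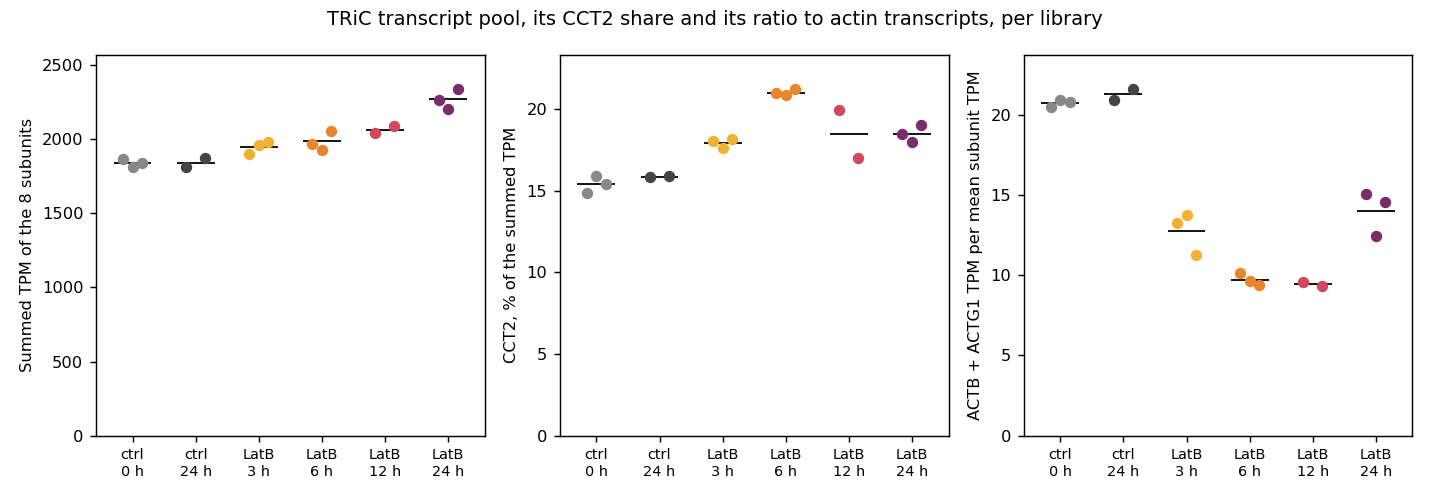
Per-library quantities (each vertical axis from 0), with bars as group means: the summed TPM of the 8 subunits, the percentage of that sum from CCT2, and the TPM of ACTB plus ACTG1 divided by the mean subunit TPM. The sum is highest at 24 h of LatB, the CCT2 share peaks at 6 h near 21%, and the actin ratio is at 20.5 to 21.6 in controls and at or below 15.04 in every LatB library.

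For each of the following lists, the counts stand beside the share of all tested genes called higher, which was 16.8% at 3 h, 22.9% at 6 h, 19.1% at 12 h and 21.9% at 24 h, and the share called lower, which was 14.7%, 20.4%, 16.8% and 18.8%. Of the 12 tubulin genes, 6 were called higher at 3 h and at 6 h, with 1 lower at 6 h. At 12 h 4 were higher and 2 lower, with a median of -0.14, and at 24 h 2 were higher and 1 lower, a share below that of all genes in both directions. TUBB, the most abundant, rose at 6 h by 0.28 ± 0.07 (adjusted p = 0.0075), though its locus has alternate copies and its reads are uncertain. TUBB3, the neuronal β-tubulin, had the largest rise (1.099 ± 0.10 at 6 h and 0.36 ± 0.11 at 24 h) and TUBB6 the largest fall (-0.76 ± 0.17 and -1.03 ± 0.19). Among 10 other clients of TRiC, 5 were called higher and 1 lower at 3 h and at 6 h, 2 higher and 2 lower at 12 h and 4 higher at 24 h. These were led by GNB1, a G protein β subunit (0.41 ± 0.05 at 6 h, 0.15 ± 0.05 at 24 h), and by the cyclin CCNE1 (0.76 ± 0.13 at 24 h), while CDC20, an activator of the anaphase-promoting complex, had -0.30 ± 0.11 at 6 h.

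Cochaperones that hand clients to TRiC or tune it were called mainly at 24 h. Prefoldin delivers unfolded actin and tubulin to TRiC, and 1 of its 5 tested subunits was called higher at 6 h (PFDN5, the most abundant, 0.16 ± 0.06) and 3 at 24 h (PFDN1, 0.19 ± 0.06, PFDN2, 0.18 ± 0.06, and VBP1, 0.18 ± 0.06). The 6 h count was near the 22.9% of all genes called higher, and 0 of the 5 were called at 3 h or 12 h. PFDN6 was listed at 0 in all libraries, but its locus has alternate copies whose reads were not summed here, so the 0 is not a measure of its level. The phosducin-like proteins bind TRiC with its clients. Of 3 tested, 1 was called higher at 6 h (PDCL3, 0.29 ± 0.11), 1 at 12 h and all 3 at 24 h. The 24 h values were 0.55 ± 0.12 for PDCL3, 0.50 ± 0.08 for TXNDC9 and 0.28 ± 0.06 for PDCL. Of the 6 cofactors that take tubulin over after TRiC, 1 was called higher at 3 h, where the values ran from -0.02 to 0.71. At 6 h 2 were called higher and at 24 h 2, TBCC most at both times (0.38 ± 0.07 and 0.54 ± 0.08). At 12 h 1 was called higher (TBCC) and 2 lower (TBCD, -0.40 ± 0.09, and ARL2, -0.26 ± 0.09). TBCA, the most abundant, had 0.06 and 0.12 without a call.

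No relative of the TRiC subunits was called higher after LatB. MKKS, BBS10 and BBS12, chaperonin-like proteins that assemble the ciliary BBSome, were called lower at 3 h, with -0.47 ± 0.08 for MKKS, -0.86 ± 0.07 for BBS10 and -0.32 ± 0.09 for BBS12. At 6 h MKKS (-0.26 ± 0.08) and BBS10 (-0.25 ± 0.07) were called lower, and at 24 h 0 of the 4 tested relatives were called, with a median of -0.09. The 4 values at 24 h ran from -0.28 to -0.02.

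The general cytosolic folding machinery was also raised. Of 12 HSP70 and HSP90 system genes, 5 were called higher and 1 lower at 3 h, 8 higher and 1 lower at 6 h, 8 higher at 12 h and 12 higher at 24 h, where the median was 0.40. HSP90AB1, the most abundant, rose by 0.36 ± 0.06 at 6 h and 0.37 ± 0.06 at 24 h, and HSPA8, the constitutive HSP70, by 0.35 ± 0.07 and 0.60 ± 0.08. BAG2 had the largest rise at 6 h (0.44 ± 0.09), and HSPA4, a nucleotide exchange factor, was lower at 6 h (-0.13 ± 0.04) and higher at 24 h (0.19 ± 0.04). Of 6 mitochondrial chaperones, 4 were called higher at 6 h and 4 at 24 h, with GRPEL1 at 0.43 ± 0.09 at 6 h and HSPE1 at 0.70 ± 0.10 at 24 h.

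Among 12 genes known for induction by heat shock, 3 were called higher and 1 lower at 3 h, and 4 higher and 1 lower at 6 h. At 12 h and again at 24 h, 8 were called higher and 1 lower. HSPA4L had the largest called rise at 6 h (0.29 ± 0.08), HSPB1 fell at 24 h (-0.36 ± 0.09), and HSPA1A, which is near-identical to HSPA1B and has alternate copies, was lower at 6 h (-0.35 ± 0.10) and higher at 24 h (0.40 ± 0.11) with uncertain reads. HSPE1 had the largest called rise of this list too at 24 h. HSPA1B held 0 TPM in both 24 h controls and 0 to 4.25 TPM after 24 h of LatB, and was not called. This list shares DNAJB1, HSPH1, AHSA1, HSPD1 and HSPE1 with the lists above. The 24 h calls of DNAJB1, HSPH1, AHSA1 and HSPE1 are therefore counted in both places.

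**Figure D5:**
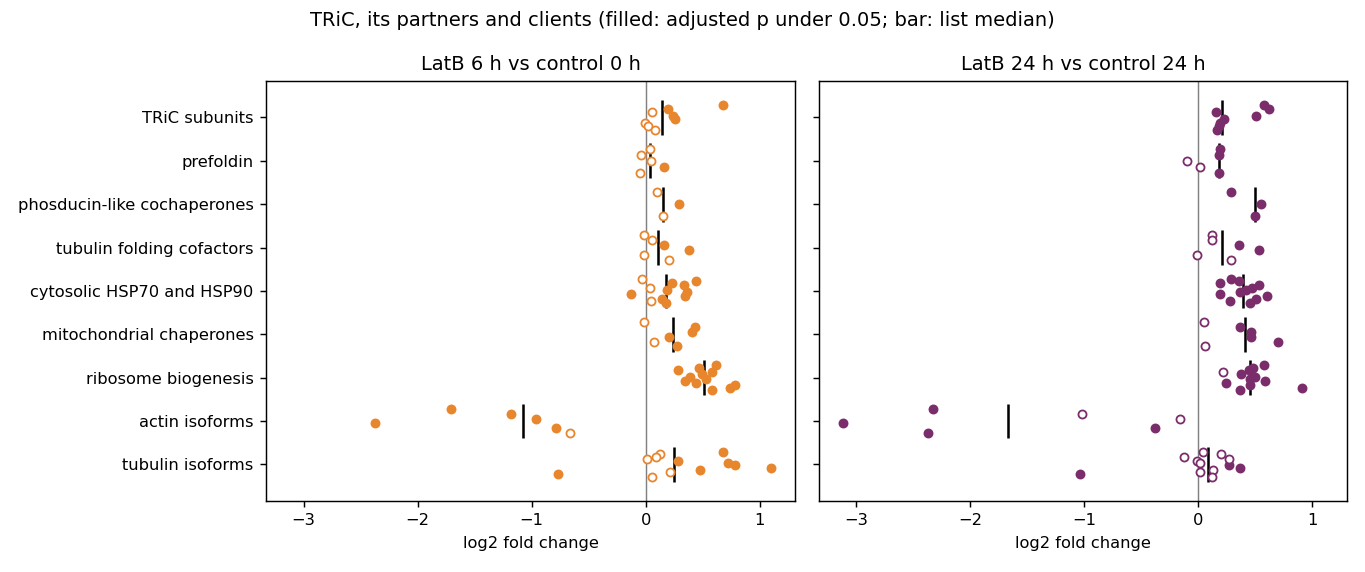
Log2 fold change (horizontal axis) of every tested gene in 9 gene lists at 6 h (left) and 24 h (right) of LatB; each point is a gene, filled where the adjusted p was under 0.05, and the bar is the list median. The TRiC points lie at or right of 0 at both times apart from CCT7 at -0.0073 at 6 h, with medians of 0.14 and 0.21, while the actin points all lie left of 0.

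Ribosome biogenesis genes were also raised, and 8 of 12 were called higher at 3 h, 12 at 6 h, 4 at 12 h and 11 at 24 h. NPM1, the abundant nucleolar chaperone, rose by 0.44 ± 0.05 at 6 h and 0.25 ± 0.06 at 24 h, POLR1B by 0.78 ± 0.10 at 6 h and RRP9 by 0.91 ± 0.12 at 24 h. Among 6 transcription factors known for binding chaperone, growth or actin genes, MYC rose by 2.48 ± 0.26 at 3 h, 2.26 ± 0.26 at 6 h and 1.44 ± 0.30 at 24 h, and its paralogue MYCN fell (-2.26 ± 0.11, -1.77 ± 0.10 and -1.14 ± 0.11). HSF1, the heat shock factor, was called higher at 3 h (0.29 ± 0.07) and 6 h (0.22 ± 0.07) and had -0.19 ± 0.08 at 24 h (adjusted p = 0.059). SRF, the factor that reads actin monomer levels with its cofactors, was called lower at 3 h (-0.35 ± 0.07), 6 h (-0.47 ± 0.08) and 12 h (-0.51 ± 0.09), and at 24 h it had 0.18 ± 0.08 without a call (adjusted p = 0.11). Whether any of these factors acts on the TRiC genes was not tested.

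Distances between genes were measured from the outermost annotated start of each gene. On that measure, 5 of the 8 subunits start within 1000 bases of a protein-coding gene on the opposite strand. The partners had time courses of their own. For CCT3 and CCT7 the outermost start lies upstream of the stretch printed above, so distances from the starts shown there were not measured. MRPL18, a mitochondrial ribosomal protein gene 109 bases from TCP1, fell at 3 h (-0.42 ± 0.05) and 6 h (-0.35 ± 0.05) and had 0.11 at 24 h without a call. ATPSCKMT, 32 bases from CCT5, fell at 3 h (-0.30 ± 0.11) and 6 h (-0.37 ± 0.11) and rose at 12 h (0.51 ± 0.12) and 24 h (0.76 ± 0.12). COMMD1, 53 bases from CCT4, rose at 24 h (0.30 ± 0.07, adjusted p = 0.0046). PSPH, 81 bases from CCT6A, and PRADC1, 181 bases from CCT7, were not called in any LatB comparison. The library kit does not mark strand, so reads from overlapping ends of such pairs cannot be told apart.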

How the data were processed

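The authors deposited a salmon transcript table per library (salmon 1.3.0 and hg38 per the labels), with estimated counts that need not be whole and TPM values. Which annotation these tables used is not given in the sources used here, since the study's methods describe another route. Of 177456 transcripts, 165533 were joined to genes by identifier through GENCODE release 44, and 2.92% to 3.17% of reads per library had no match and were left out. The authors' deposited table of fold changes and adjusted p-values, with 16 columns of per-sample values, was not used.

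Estimated counts were summed per gene, rounded and tested with edgeR 4.0.16 in R 4.3.3 (two-sided quasi-likelihood test, all 6 groups in one fit, TMM factors from 0.947 to 1.05, filterByExpr). Adjustment was by Benjamini and Hochberg over the 16705 genes tested, with calls under 0.05. Standard errors were derived from the log2 fold change and its F statistic. TPM was compared with limma 3.58.1, and DESeq2 1.42.0 was an alternative. The test was also run on counts simulated from the fitted spread for the 3 h comparison alone. Far fewer genes were changed there than were called in the data, so it is no check of these calls. The members and gene lists were chosen with earlier results of these data known. Named genes are all 8 subunits, and from each other list the member with the highest mean TPM and the called members with the largest rise and fall at 6 and 24 h, plus genes with a start within 1000 bases on the opposite strand and the 5 genes most correlated with the subunit mean. Genes named beyond that rule (ACTB, PFDN2, VBP1, TXNDC9, PDCL, TBCD, ARL2, BBS10, BBS12 and SRF) were chosen after their values were seen. The number of libraries and the read totals set the precision, and no interval given covers more than the spread between these libraries.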

Additional observations from a re-analysis of the deposited data

Results flagged for a closer look

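CCT3 and CCT5 stood out because the effect of LatB at 24 h, measured against the 24 h control, differed from its effect at 3 h, measured against the 0 h control. The difference between the effects was 0.51 ± 0.07 on the log2 scale for CCT3 (adjusted p = 0.00017, edgeR quasi-likelihood test) and 0.40 ± 0.09 for CCT5 (adjusted p = 0.0061). Both were called under each of the 23 alternatives run, with values of 0.47 to 0.62 for CCT3 and 0.35 to 0.50 for CCT5. All 3 LatB libraries at 24 h lay above both 24 h controls for each gene, whereas at 3 h the CCT5 libraries overlapped the 0 h control. The effects at 3 h and 24 h were taken against different controls.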

How the results depend on the processing

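No subunit was called lower in any setting, and CCT2, CCT3 and CCT5 at 24 h were called in all 18 alternatives. The count of called subunits at 24 h (8) became 4 without the low-count filter, 5 at an adjusted p under 0.01 and 5 with log2(TPM + 1) or log2(TPM + 0.1). It was 6 with a length offset, with the compared groups only and against the 0 h control. At 6 h (4) it became 2 with a length offset and 1 on either TPM scale. At 12 h (4) it became 2 with a length offset, 2 at the stricter threshold, 2 with the compared groups only and 2 on either TPM scale. From 6 to 24 h (4) it became 2 with a length offset and 1 at the stricter threshold. For the difference of effects (2) it became 7 without scaling, 4 with the compared groups only and 4 with DESeq2, and at 3 h (2) it became 4 against the other control. The cause of these shifts was not tested. Without scaling, the median of all genes from 6 to 24 h was 0.14 and the share of higher calls 73.8% in place of 50.1%, and for the difference of effects 69% in place of 52.1%.

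Leaving out 1 library, the count ran from 2 to 4 at 12 h (2 without control 0 h replicate 2 or 3 or LatB replicate 1), from 3 to 8 at 24 h (3 without the first control, which leaves 1 control library assumed to vary like the other groups), from 1 to 5 from 6 to 24 h (1 without LatB 6 h replicate 1 or 2, or LatB 24 h replicate 3) and from 3 to 4 at 6 h. With the replicate number as a block, 7 subunits were called at 24 h, CCT4 being lost at 0.15 (adjusted p = 0.060). At 12 h the count stayed at 4, but the call of CCT4 was lost at 0.15 (adjusted p = 0.068) and CCT6A was called at 0.16 (adjusted p = 0.024). Among the other subunit differences refitted with the block, no call changed. Same-numbered libraries did not deviate together (r from -0.24 to 0.12 over 36 pairs), so the numbers were not taken as a pairing.

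The sign turned only for values that were called neither way. At 3 h these were -0.00548 for CCT8 with RLE factors and -0.00535 with DESeq2, -0.028 for TCP1, -0.067 for CCT4, -0.067 for CCT7 and -0.072 for CCT8 without scaling, -0.000227, -0.000285 and -0.00576 for CCT4, CCT7 and CCT8 without the filter, -0.00877, -0.0382 and -0.0415 for the same genes in coding transcripts, -0.011 for CCT5 on either TPM scale, and -0.035 for CCT4 against the other control. At 6 h they were -0.00516 for TCP1, -0.040 for CCT4 and -0.072 for CCT8 without scaling, -0.0071 for TCP1 and -0.036 for CCT8 on either TPM scale, -0.023 for CCT8 in coding transcripts and 0.073 for CCT7 against the other control. At 12 h they were 0.034 for CCT8 with a length offset and 0.032 on either TPM scale, -0.035 for CCT7 in coding transcripts and -9.33e-05 with the compared groups only. From 6 to 24 h CCT2 had 0.041 without scaling and 0.0093 on either TPM scale, and CCT6A had 0.054 for the difference of effects without scaling. Over the fits that leave out 1 library, the ranges were -0.028 to 0.037 for CCT4, -0.019 to 0.037 for CCT7 and -0.036 to 0.035 for CCT8 at 3 h, -0.060 to 0.018 for CCT7 and -0.040 to 0.049 for CCT8 at 6 h, -0.028 to 0.052 for CCT7 and -0.057 to 0.012 for CCT8 at 12 h, and -0.057 to 0.019 for CCT6A from 3 to 6 h.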
